A study of Mus musculus with 6 samples.

Results

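The 7 genes described here are the 3 mouse runt domain transcription factors Runx1, Runx2 and Runx3, their common partner Cbfb, and the 3 genes of the ETO corepressor family, Runx1t1, Cbfa2t2 and Cbfa2t3. They were taken by name from a table of 55401 genes, and 6 of the 7 passed a filter of at least 10 normalized counts in at least 3 of the 6 libraries, as did 14273 genes in all. Runx1t1 did not pass. Bone marrow cells came from 6 secondary recipients of a HoxA9/Meis1 leukaemia, a myeloid leukaemia set off by the homeobox genes Hoxa9 and Meis1. Mice 62, 63 and 87 had received lymphoid leukaemic stem cells and gave lymphoid cells (Lym), and mice 56, 57 and 91 had received Lin- leukaemic stem cells and gave Lin-, cKit-positive progenitor cells (Lin-). Both groups thus carry the HoxA9/Meis1 leukaemia, and there is no group without it. Strain, age, the donor leukaemia of each mouse and any host cells left in the marrow samples are not given in the sources used here. Each mouse gave 1 library of total RNA.

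Runx proteins bind DNA through the runt domain, and Cbfb, which does not touch DNA itself, raises that affinity and protects the Runx protein from breakdown. Runx1 is needed for the first definitive blood stem cells and for normal platelet and lymphocyte formation, Runx2 is best known as the master regulator of bone formation, and Runx3 acts in T cells and other leukocytes. ETO family proteins do not bind DNA on their own. They bring histone deacetylase complexes to E proteins and to other factors, and in human acute myeloid leukaemia RUNX1 and CBFB are fused to RUNX1T1 and MYH11 by recurrent rearrangements. Runx genes have a distal and a proximal promoter, whose transcripts encode different amino ends.

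The distal promoters of the 3 Runx genes carry the same run of DNA with paired Runx binding motifs, and their sequences are shown because Runx proteins read these motifs. RefSeq windows (build GRCm38.p6, 250 bases before to 50 bases after a gene start) were on hand for 6 of the 7 members, 9 windows in all. Of these, the farthest upstream windows of the 3 Runx genes and of Cbfa2t3, the members whose windows hold a Runx motif, are printed, with every TGTGGT or TGCGGT, on either strand, in capitals.
Runx1, chr16:92826025-92826324, minus strand: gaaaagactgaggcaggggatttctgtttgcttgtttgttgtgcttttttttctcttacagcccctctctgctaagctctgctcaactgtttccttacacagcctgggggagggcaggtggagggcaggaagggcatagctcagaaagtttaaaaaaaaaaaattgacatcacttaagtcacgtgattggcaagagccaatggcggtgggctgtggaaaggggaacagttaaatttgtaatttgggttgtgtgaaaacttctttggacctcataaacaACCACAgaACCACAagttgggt
Runx2, chr17:44814578-44814877, minus strand: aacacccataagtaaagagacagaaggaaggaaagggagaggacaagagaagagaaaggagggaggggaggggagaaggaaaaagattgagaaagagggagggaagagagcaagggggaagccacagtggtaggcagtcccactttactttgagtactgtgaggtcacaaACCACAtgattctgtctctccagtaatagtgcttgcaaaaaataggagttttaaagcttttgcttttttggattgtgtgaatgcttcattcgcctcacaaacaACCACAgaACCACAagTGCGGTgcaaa
Runx3, chr4:135120395-135120694, plus strand: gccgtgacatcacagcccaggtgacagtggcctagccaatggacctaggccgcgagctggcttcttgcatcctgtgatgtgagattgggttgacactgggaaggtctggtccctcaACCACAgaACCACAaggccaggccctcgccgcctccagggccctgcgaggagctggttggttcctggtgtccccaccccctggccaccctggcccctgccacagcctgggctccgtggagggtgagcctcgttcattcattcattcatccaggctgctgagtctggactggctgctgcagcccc
Cbfa2t3, chr8:122699060-122699359, minus strand: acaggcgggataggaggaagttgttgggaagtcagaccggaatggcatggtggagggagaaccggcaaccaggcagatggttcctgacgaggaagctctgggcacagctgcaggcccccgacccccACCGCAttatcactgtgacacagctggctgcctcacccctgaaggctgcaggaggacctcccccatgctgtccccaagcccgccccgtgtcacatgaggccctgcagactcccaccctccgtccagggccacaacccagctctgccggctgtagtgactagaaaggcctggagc

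The longest run found in the first window of all 3 Runx genes was 18 bases, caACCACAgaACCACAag, with the motif in capitals on the reverse strand. It lay 27 to 44 bases after the gene start of Runx1 and 22 to 39 bases after that of Runx2, and at positions -136 to -119 from that of Runx3. Between Runx1 and Runx2 the shared run grew to 22 bases, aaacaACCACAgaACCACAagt. Among 32851 windows of 27025 genes the 18-base run occurred in 4, those of the 3 Runx genes and that of Gm16225, a long noncoding RNA gene that starts on the other strand beside Runx3, so that its window overlaps the window printed. The looser pair, 2 copies of ACCACA (the reverse complement of TGTGGT) on the same strand with any 2 bases between them, searched on both strands, occurred in 7 windows, or 0.0213%, and besides those 4 in the windows of Gm15462, Olfr24 and Gm12236. The single motif TGTGGT stood in 16.8% of all windows and TGCGGT in 6.45%. The share for TGTGGT includes the windows with the pair.

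The second windows of Runx1 and Runx3 and the windows of Cbfb and Cbfa2t2 held neither form of the motif, nor did the second window of Cbfa2t3, while its first window held a single TGCGGT. The first windows of Runx1 and Runx2 were poor in CpG, with 2 CpG each and 45.0% and 45.3% G and C, and that of Runx3 had 8 CpG and 63.7%. The second windows had 35 CpG for Runx1 and 45 for Runx3. The median over all windows was 7 CpG. Of the other motifs searched on both strands, the Meis motif TGACAG (19.2% of all windows) occurred in the first window of Runx3, overlapping no Runx motif. The Hox and Pbx motif TGATTNAT (3.22%), the GATA motif AGATAA (11.2%) and the ETS motif CCGGAAGT (3.89%) occurred in none of the 9. A match is a stretch of letters and not a bound site, and counts per gene do not show which promoter was in use.

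**Figure D1:**
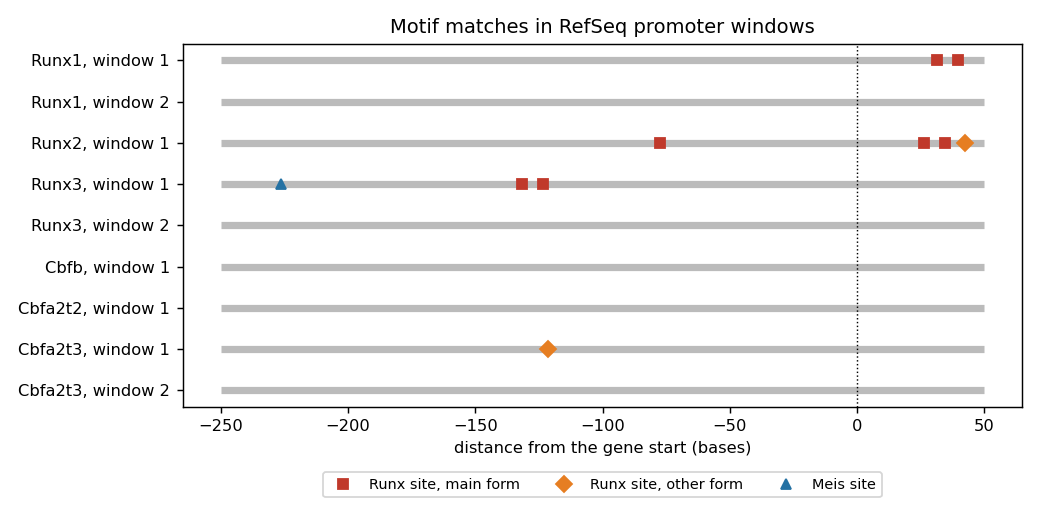
Motif matches in the 9 RefSeq promoter windows of 6 members, with the distance from the gene start in bases on the x axis and a grey bar for each window. Paired squares, the main form of the Runx motif, stand in the first windows of Runx1, Runx2 and Runx3, and 1 more square stands in that of Runx2.

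Levels are normalized counts, which the authors obtained by scaling each library's reads with a size factor of its own, and errors are SDs over 3 mice. Strings of 3 values follow the order of mice 62, 63 and 87 for Lym and of 56, 57 and 91 for Lin-. Assigned reads came to 18537700 to 22634286 per library, where 3 reads, the floor used here for counting error, are 2.64 to 3.36 normalized counts. The Lym library of mouse 87 stood nearer to the Lin- libraries. Across the tested genes, its Pearson correlation of log2 levels was 0.965 to 0.979 with the Lin- libraries against 0.927 and 0.948 with Lym mice 62 and 63. Closeness to a Lin- library was not confined to mouse 87. Lym mice 62 and 63 correlated at 0.958 with each other, and at 0.943 and 0.961 with Lin- mouse 57. These are values across genes, which are not replicates. The tests of the members and of the gene lists are therefore also given without the library of mouse 87. Of the markers of the labels, Kit, the receptor of the Lin- gate, was present in all 6 libraries, at 3158 to 18902 in Lym and 3420 to 6066 in Lin-. Of 7 B cell markers, Ms4a1, Pax5 and Blk had at most 3 reads in any library, while Cd79b was present at 28.0 to 255 in Lym and 45.8 to 414 in Lin-. Of 7 T cell markers, Cd3d, Cd4, Cd8a and Trac had at most 3 reads in any library. Most defining B and T cell markers were thus at or near 0 in samples labelled lymphoid, which the series title describes as pro B cells. In such bulk samples, fewer cells that hold a transcript and less of it per cell cannot be told apart.

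Runx1 was higher in Lym, at 1.96 times the Lin- mean, and all 3 Lym libraries lay above all 3 Lin- libraries. Runx1 (ENSMUSG00000022952.17, chromosome 16, 92601466 to 92826149, GRCm38) stood at 13101, 10073 and 6419 normalized counts in Lym against 5199, 5271 and 4632 in Lin-. The Lin- mice were close together, whereas the Lym mice differed among themselves by a factor of 2.04 from highest to lowest, with mouse 87 nearest to Lin-. The means were 9864 ± 3346 and 5034 ± 350 (SD, n = 3 each), and neither mean lay within the range of the other group. On the log2(normalized count + 2) scale the difference was 0.91 ± 0.23 (SE), with a limma adjusted p of 0.42 and an unadjusted p of 0.00374. DESeq2 put it past the threshold of 0.05 (adjusted p = 0.00478), as did the authors' deposited table, made with DESeq2 from the same libraries (adjusted p = 0.0116).

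Runx2, the bone regulator, showed nearly the same pattern at a lower level. Runx2 (ENSMUSG00000039153.17, chromosome 17, 44495987 to 44814797) was at 3418, 2882 and 1827 in Lym against 1318, 1414 and 1523 in Lin-. Again the groups did not overlap and mouse 87 was the lowest Lym library, 1.29 times the Lin- mean against 2.41 times in mouse 62. The log2 difference was 0.89 ± 0.22 (SE), with a limma adjusted p of 0.42, a DESeq2 adjusted p of 0.0065 and, in the authors' deposited table, an adjusted p of 0.0158. Most skeletal genes with described Runx2 sites were at or near 0. Of 8 bone genes with described Runx2 sites, Sp7, Bglap, Bglap2, Ibsp and Tnfrsf11b had at most 3 reads in any library. Spp1, osteopontin, was the single member tested, at 5.61, 3.36 and 45.7 in Lym and 34.4, 29.0 and 36.1 in Lin- (limma adjusted p = 0.541, and 0.0324 without Lym mouse 87, the library in which it was highest). Without that library, Spp1 passed the filter through its Lin- libraries alone. That it then counts as lower in Lym follows from the filter.

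Runx3 differed less. Runx3 (ENSMUSG00000070691.10, chromosome 4, 135120652 to 135177990) was at 3646, 3318 and 3007 in Lym against 2500, 2503 and 2712 in Lin-. Every Lym library lay above every Lin- library, with 296 normalized counts between the nearest of them. The ratio of the means was 1.29 and the log2 difference 0.37 ± 0.12 (SE), with adjusted p-values of 0.434 in limma, 0.37 in DESeq2 and 0.824 in the authors' deposited table.

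Cbfb, the partner subunit, overlapped between the groups. Cbfb (ENSMUSG00000031885.14, chromosome 8, 105170674 to 105217989) was at 4031, 3152 and 2899 in Lym against 3740, 2829 and 2981 in Lin-. Mouse 62 in Lym and mouse 56 in Lin- were high, and the other 4 libraries lay together. The log2 difference of 0.07 ± 0.16 (SE) was smaller than its error (limma adjusted p = 0.883), and its sign turned without Lym mouse 62 (-0.06) or without Lin- mouse 57 (-0.005).

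**Figure D2:**
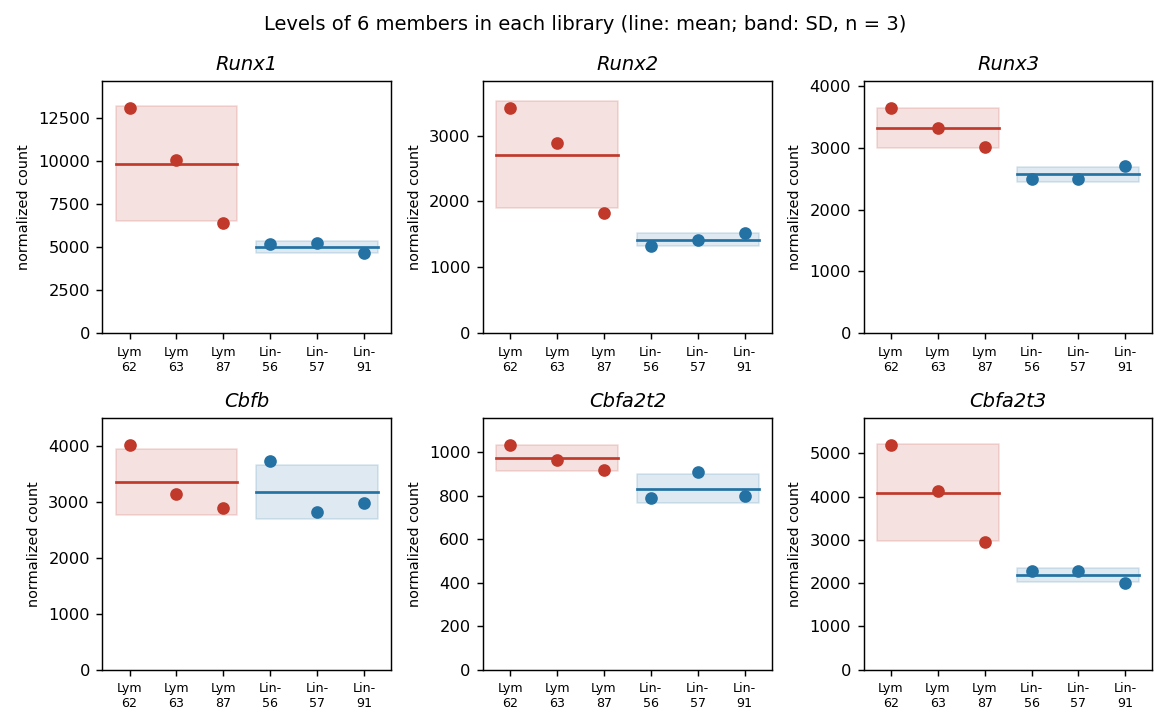
Normalized counts of 6 members in each of the 6 libraries, with Lym in red and Lin- in blue, a line for the mean and a band for the SD (n = 3). In all panels but that of Cbfb the 3 Lym points lie above the 3 Lin- points, and Lym mouse 87 is the lowest of the Lym points.

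Among ETO family genes, Cbfa2t3 differed, Cbfa2t2 differed little, and Runx1t1 was almost without reads. Cbfa2t3, also known as Eto2, a corepressor of the Gata1, Tal1 and Ldb1 complex that restrains erythroid and megakaryocytic maturation (ENSMUSG00000006362.16, chromosome 8, 122625141 to 122699109), was at 5201, 4129 and 2947 in Lym against 2273, 2290 and 2003 in Lin-. The groups were apart, and the Lym libraries kept the order of Runx1 and Runx2. The log2 difference was 0.87 ± 0.20 (SE), with adjusted p-values of 0.42 in limma, 0.00478 in DESeq2 and 0.0117 in the authors' deposited table.

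Cbfa2t2, also known as Mtgr1, a broadly expressed corepressor (ENSMUSG00000038533.15, chromosome 2, 154436481 to 154539356), was at 1035, 967 and 918 in Lym against 789, 911 and 799 in Lin-. The groups just failed to overlap, with 6.7 normalized counts between Lym mouse 87 and Lin- mouse 57. Its log2 difference was 0.23 ± 0.13 (SE, limma adjusted p = 0.573). Runx1t1, the ETO gene itself (ENSMUSG00000006586.15, chromosome 4, 13743436 to 13893649), had 10 reads in Lym mouse 87, or 9.53 normalized counts, and 0 reads in the other 5 libraries, where a count of 0 allows up to 2.64 to 3.36 normalized counts. It was not tested.

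In limma, 0 of the 6 tested members passed an adjusted p of 0.05, as did 0 of all 14273 genes (0.0%). With edgeR's quasi-likelihood test on the recovered reads it was also 0 of 6. At an unadjusted p under 0.05 in limma 4 of the 6, Runx1, Runx2, Runx3 and Cbfa2t3, were higher in Lym, against 5.96% of all genes. In either direction 10.2% of all genes did so in limma, which is 1459 genes, with 1442 in edgeR and 1355 in limma-voom. All 6 had a positive log2 difference, against 48.7% of all genes. 5 of the 6 had groups that were apart with Lym higher, against 8.49% of all genes, and the median log2 difference of the 6 was 0.62 against -0.01 over all genes. DESeq2 called 3 of the members, Runx1, Runx2 and Cbfa2t3, all higher in Lym, against 1.14% of 16268 genes, and the authors' deposited table called the same 3 against 0.256%. limma with library weights, which give a library that stands apart less say, also called these 3 (adjusted p = 0.022, 0.0242 and 0.0213), against 2.98%. The genes were taken up with earlier results of these data in view, so these shares describe the members and test nothing about them as a set.

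The calls turned on which mouse was left out. Without Lym mouse 87, Runx1 (log2 difference 1.19, adjusted p = 0.00241), Runx2 (1.15, 0.00241), Runx3 (0.44, 0.0404) and Cbfa2t3 (1.08, 0.0035) passed in limma, where 5.49% of all genes passed as higher in Lym. The same 4 passed without it in edgeR (5.35% of all genes) and in DESeq2 (7.5%). The library was singled out for its distance from the other Lym libraries, so these values are no separate support. The 3 DESeq2 calls were lost when any of the other 5 mice was left out, where 0.225% (Lym 62), 0.221% (Lym 63), 0.203% (Lin- 56), 0.545% (Lin- 57) and 0.243% (Lin- 91) of all genes passed as higher in Lym. The DESeq2 adjusted p then lay between 0.0622 and 0.186 for Runx1, between 0.0916 and 0.225 for Runx2 and between 0.0504 and 0.153 for Cbfa2t3. The log2 difference of these 3 genes stayed positive in every such fit, at its lowest without Lym mouse 62 in limma, with 0.68, 0.70 and 0.68.

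**Figure D3:**
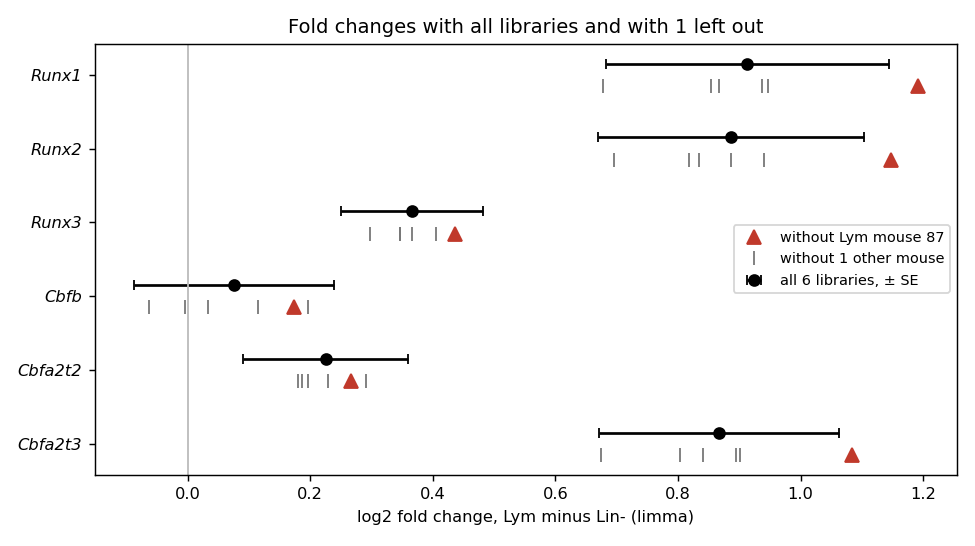
Log2 fold changes of 6 members in limma, Lym minus Lin-, on the x axis. Black points with bars give all 6 libraries with the SE, red triangles the value without Lym mouse 87 and grey ticks the values without 1 of the other mice. Runx1, Runx2 and Cbfa2t3 lie between 0.68 and 1.19 in all of these, and Cbfb lies on both sides of 0.

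To compare levels between genes, normalized counts were divided by the length of the merged exons in kilobases. The summed level of the 3 Runx genes was 2205, 1827 and 1342 per kilobase in Lym against 1081, 1099 and 1100 in Lin-. The Lin- libraries were almost equal, and all Lym libraries were above them. Divided by the level of Cbfb per kilobase, the sum was 1.90, 2.02 and 1.61 in Lym and 1.01, 1.35 and 1.28 in Lin-, so the ratio of Runx to Cbfb transcripts was also apart between the groups. These sums and ratios over chosen genes carry no test.

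Runx2 made up the smallest part of the summed level in every library, 15.4 to 17.9% in Lym and 13.8 to 15.7% in Lin-. Runx1 held 49.4, 45.9 and 39.8% in Lym against 40.0, 39.9 and 35.0% in Lin-. Runx3 held 33.1, 36.3 and 44.8% against 46.2, 45.5 and 49.3%. The share of Runx3 was thus lower in every Lym than in any Lin- library, while those of Runx1 and Runx2 overlapped. The mean share of Runx3 differed by -8.97 percentage points, and by -12.3 without Lym mouse 87. The ranking of Runx1 and Runx3 in Lin- depended on the length used. By the longest transcript in place of the merged exons, the share of Runx1 was 49.3 ± 3.03% and that of Runx3 38.1 ± 2.13% in Lin- (SD, n = 3), with Runx1 first, where merged exons put Runx3 first. The ratio of Runx1 to Runx2 per kilobase was 2.66 ± 0.142 in Lym and 2.62 ± 0.35 in Lin-, and that of Runx1 to Cbfa2t3 was 1.66 ± 0.121 and 1.6 ± 0.01 (SD, n = 3 each), so each pair kept nearly the same proportion in both groups. Cbfa2t3 stood at 5.19, 4.41 and 3.32 times Cbfa2t2 in Lym and at 2.98, 2.6 and 2.59 times in Lin-.

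**Figure D4:**
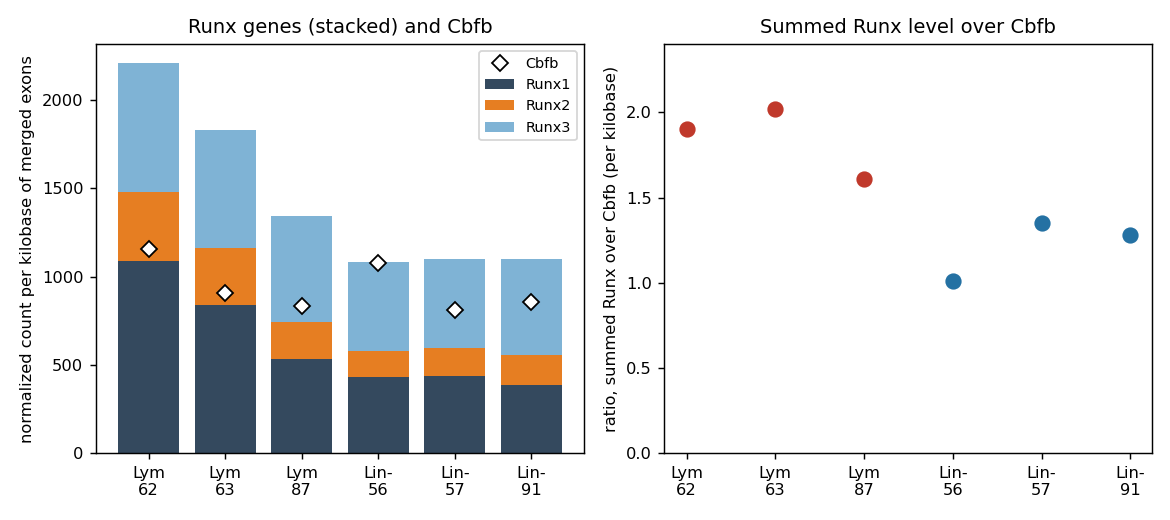
Left, normalized counts per kilobase of merged exons of Runx1, Runx2 and Runx3, stacked, with Cbfb as open diamonds, in each library. Right, the summed Runx level over that of Cbfb, with Lym in red and Lin- in blue, where Lym lies between 1.61 and 2.02 and Lin- between 1.01 and 1.35.

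The members were also compared by how their levels ran over the 6 libraries. Likeness was measured as the root mean square difference of log2 levels after each gene was centred on its own mean. Levels were not scaled, so the size of a change counts as well as its order. Runx1 differed from Cbfa2t3 by 0.0678 and from Runx2 by 0.122 on this scale, but from Runx3 by 0.365, from Cbfa2t2 by 0.431 and from Cbfb by 0.473. Runx3 differed from Cbfa2t2 by 0.118. Among 9158 other named genes with a mean of at least 100 normalized counts, those most like Runx1 were Btnl9, a butyrophilin-like surface protein (0.0552), Ssbp2, a single-stranded DNA binding protein that works with Ldb1 (0.0881), and Kcnn4, a calcium-activated potassium channel (0.0944). Those most like Runx2 were Gfod1 (0.0675), the kinase gene Csnk1e (0.0800) and again Ssbp2 (0.0911). Tcf4, an E protein gene (0.0869), Kcnn4 (0.0910) and the G protein subunit gene Gna15 (0.0952) came nearest to Cbfa2t3. Runx3 was nearest to Rreb1 (0.0279), Prr12 (0.0285) and Spen (0.0298), Cbfb to Rps28 (0.0318), Gmcl1 (0.0352) and Gid4 (0.0446), and Cbfa2t2 to Brat1 (0.0267), Tti1 (0.0308) and Ralgapb (0.0337). Rps28, Gmcl1 and Gid4 had, like Cbfb, log2 differences near 0 (0.05, 0.05 and 0.035), whose sign turned when Lym mouse 62 was left out (-0.08, -0.11 and -0.10). They were picked for likeness to Cbfb over these same libraries, so this follows from the choice.

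Of the enzymes and coactivators that act on Runx proteins, most of those tested had a positive log2 difference. Among 15 tested of 18 listed, 12 had a positive and 3 a negative difference, with a median of 0.34, where 48.7% of all genes were positive. 8 were apart with Lym higher, against 8.49% of all genes. None passed in limma over all genes, and 7 higher and 0 lower had an unadjusted p under 0.05, where 5.96% of all genes were higher and 4.27% lower by that rule. Without Lym mouse 87, 7 passed in limma as higher and 1 as lower, where 9.67% of all genes passed in either direction. Crebbp, an acetyltransferase that binds Runx1, was at 11370, 11785 and 9300 in Lym against 7200, 7329 and 7210 in Lin- (log2 difference 0.57 ± 0.12, SE, limma adjusted p = 0.42). Kmt2a, the histone methyltransferase MLL1, was at 11213, 7728 and 5717 against 4985, 5486 and 4556 (limma adjusted p = 0.446). Kat6b, a relative of the acetyltransferase Kat6a, was at 1878, 1240 and 1092 against 704, 1080 and 825 (limma adjusted p = 0.451). Cdk6, a cell cycle kinase that also binds Runx1 and blocks its activity, was the most abundant of the list, at 46588, 38810 and 29956 against 25403, 29567 and 29145 (limma adjusted p = 0.461).

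Corepressor genes were divided. Of 16 tested of 18 listed, 9 were higher and 7 lower in Lym, with a median of 0.12, where 48.7% of all genes were higher. 4 were apart, all with Lym higher, against 8.49% of all genes. 5 higher and 1 lower had an unadjusted p under 0.05, against 5.96% and 4.27% of all genes. None passed over all genes in limma. Without Lym mouse 87, 2 passed, both higher in Lym, where 5.49% of all genes passed as higher. Among those apart were the Groucho family genes Tle4, with 2153, 1600 and 1550 normalized counts against 1317, 1463 and 1334, and Tle3, with 4275, 4830 and 4009 against 3296, 3441 and 3625 (limma adjusted p = 0.487 and 0.446). Ncor1, the nuclear receptor corepressor that ETO proteins bind, was at 20063, 18774 and 15762 against 15273, 14095 and 14364 (limma adjusted p = 0.461). Of the 3 E protein genes, which ETO proteins also bind, Tcf4 and Tcf3 were apart with Lym higher and Tcf12 overlapped, where 8.49% of all genes were apart with Lym higher. Without Lym mouse 87, 1 of the 3 passed in limma, where 5.49% of all genes passed as higher. Tcf4 was at 5378, 4091 and 2831 against 2449, 2652 and 2128 (log2 difference 0.72 ± 0.22, SE, limma adjusted p = 0.423), and Tcf3 at 5033, 4183 and 4700 against 4073, 3279 and 3667 (limma adjusted p = 0.452).

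Factors that share enhancers with Runx1 in blood progenitors had a positive log2 difference in 13 of 15 tested of 19 listed, against 48.7% of all genes. The median was 0.28. 5 were apart with Lym higher, against 8.49% of all genes, and 1 with Lym lower, against 7.08%. The others overlapped. 6 higher and 1 lower had an unadjusted p under 0.05, against 5.96% and 4.27% of all genes. None passed in limma over all genes. Without Lym mouse 87, 4 passed as higher and 1 as lower, where 9.67% of all genes passed in either direction. Zfpm1, a cofactor of GATA proteins, was at 1209, 557 and 314 in Lym against 224, 171 and 134 in Lin- (log2 difference 1.78 ± 0.44, SE, limma adjusted p = 0.42). Gata2, a factor of stem, mast and megakaryocytic cells, was at 6521, 2938 and 1505 against 1152, 974 and 798 (limma adjusted p = 0.42). Cebpb, a factor of macrophages and granulocytes, ran the other way, at 265, 403 and 652 against 955, 661 and 1270 (log2 difference -1.17 ± 0.35, SE, limma adjusted p = 0.421). Myb was the most abundant, at 43579, 29322 and 27613 against 23477, 25883 and 21926 (limma adjusted p = 0.46).

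**Figure D5:**
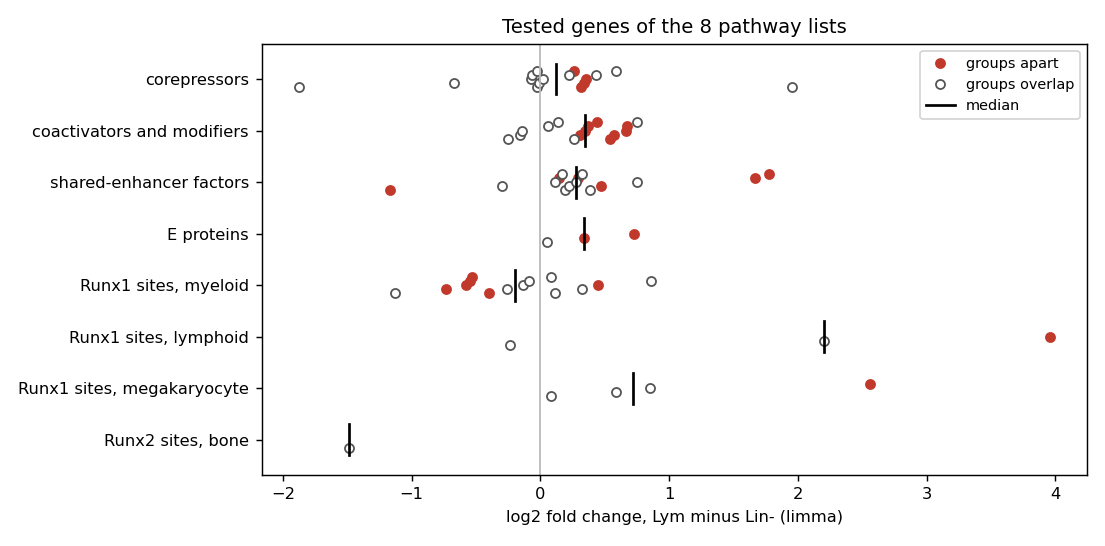
Log2 fold changes in limma, Lym minus Lin-, of the tested genes of 8 lists around the Runx factors, with filled points for genes whose groups were apart, open points for genes whose groups overlapped and a bar for the median. The medians of coactivators (0.34) and of shared-enhancer factors (0.28) lie above 0 and that of myeloid genes with Runx1 sites (-0.20) below it.

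Genes with described Runx1 sites did not follow a common direction. Of 14 tested of 16 listed myeloid genes, 9 were lower and 5 higher in Lym, with a median of -0.20, where 48.7% of all genes were higher. 5 were apart with Lym lower, against 7.08% of all genes, and 1 with Lym higher, against 8.49%. 5 lower and 1 higher had an unadjusted p under 0.05, against 4.27% and 5.96% of all genes. None passed in limma over all genes. 2 passed without Lym mouse 87, both lower in Lym, where 9.67% of all genes passed in either direction. Mpo, the myeloperoxidase of primary granules, was at 55058, 48212 and 48014 in Lym against 57600, 118583 and 61987 in Lin- (limma adjusted p = 0.49). Prtn3, proteinase 3, was at 3037, 3576 and 3936 against 4650, 7823 and 5392 (log2 difference -0.73 ± 0.20, SE, limma adjusted p = 0.42). Itgb2, the common chain of the leukocyte integrins, was at 1593, 1854 and 2152 against 2455, 2655 and 2932, and Lyz2, lysozyme, at 1299, 1167 and 858 against 1537, 1809 and 1458 (limma adjusted p = 0.42 and 0.441). Of the listed genes, Csf2 and Il3 had no read in any library.

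Of 16 lymphoid genes with described Runx1 sites, 3 passed the filter, 2 higher and 1 lower in Lym, where 48.7% of all genes were higher. The 2 higher were Il7r and Rag2, and the groups of Rag2 overlapped (log2 difference 2.20). Without Lym mouse 87, 1 of the list passed in limma, as higher in Lym, where 5.49% of all genes passed as higher. It was Rag2, as Il7r was then under the filter and Zbtb7b did not pass. Il7r, the interleukin-7 receptor, was at 424, 82.8 and 14.3 in Lym against 2.65, 3.52 and 4.13 in Lin- (limma adjusted p = 0.42). It had 3 to 4 reads in each Lin- library and passed the filter through its Lym libraries alone. That it counts as higher thus follows from the filter. Zbtb7b, a CD4 lineage factor, was at 544, 495 and 459 in Lym against 617, 610 and 541 in Lin-. Blk, Cd4, Bcl11b, Tcf7, Ptcra and Cd8a had at most 3 reads in any library. Of 11 megakaryocyte genes, 4 were tested and all 4 had a positive difference, against 48.7% of all genes. 3 of them had an unadjusted p under 0.05, against 5.96% of all genes as higher. Without Lym mouse 87, 3 passed in limma, all higher in Lym, where 5.49% of all genes passed as higher. 1 was apart with Lym higher, against 8.49% of all genes. The gene apart was Itga2b, integrin alpha IIb, at 546, 218 and 46.7 against 45.9, 27.3 and 18.6 (limma adjusted p = 0.426). Nfe2, the most abundant, overlapped, at 4552, 3551 and 2279 against 2146, 2654 and 1908. Of the same list, Pf4, Myl9, Alox12, Myh10 and Rab27b had at most 3 reads in any library.

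Of the 22 genes named from these lists, 6 passed in DESeq2 on all 6 libraries, where 226 of 16268 genes passed. Most of the 22 were named for groups apart and an unadjusted limma p under 0.05 in these data. The counts of those that passed are therefore no separate support. The DESeq2 adjusted p-values of the 6 were 0.00011 for Zfpm1, 0.00276 for Il7r, 0.0265 for Cebpb, 0.0317 for Prtn3, 0.0341 for Crebbp and 0.0477 for Tcf4. The others missed the threshold, from Itga2b (0.0648), Kmt2a (0.0815) and Gata2 (0.088) up to Spp1 (0.848). None of the 6 calls held without each mouse in turn. Leaving out any mouse but Lym 87 ended those of Crebbp (adjusted p = 0.121 to 0.244) and Tcf4 (0.146 to 0.602). That of Cebpb was also lost without any of these but Lin- mouse 57 (0.0453), and that of Prtn3 without any but Lin- mouse 56 (0.0469). Zfpm1 missed the threshold without Lin- mouse 57 (0.263) or 91 (0.0512), and Il7r without Lin- mouse 56 (0.102) or 91 (0.0577). In limma without Lym mouse 87, the library singled out above, 14 of the 22 passed, where 9.67% of all genes passed in either direction. Their limma adjusted p-values ran from 0.00502 for Gata2 to 0.0481 for Kat6b. The 14 include Spp1, which then passed the filter through its Lin- libraries alone. Tle4, Tle3, Myb, Tcf3, Lyz2, Mpo and Zbtb7b did not pass, with 0.0556 to 0.521, and Il7r was under the filter.

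Some marker lists of other cells also ran in the order of Runx1 over the Lym libraries, and their part in the result was not tested. The stem and progenitor list, 6 genes with Kit and Flt3, summed to 2435, 2139 and 1160 CPM (counts scaled to equal assigned reads) in Lym and to 1057 to 1080 in Lin-. Of its genes, Kit and Gata2 fell in that order, with Kit in Lym mouse 87 below every Lin- library. Flt3 was highest in Lym mouse 63 (19525, 22805 and 11811 normalized counts). Cd34 ran the other way (6207, 6605 and 7099), and Ly6a and Procr were near 0. The mast cell and basophil list of 4 genes summed to 767, 201 and 26.6 in Lym and to 11.0 to 18.8 in Lin-, of which Cpa3 gave 15971, 3966 and 343 normalized counts in Lym and 6.19 to 196 in Lin-, Mcpt8 gave 140 to 209 and 162 to 220, and Fcer1a had no read. The monocyte and macrophage list of 6 genes summed to 397 to 586 in Lym and 667 to 847 in Lin-. Of 6 megakaryocyte and platelet genes, Ppbp and Gp1bb had no read. The sum, 26.3, 10.6 and 2.3 in Lym and 0.901 to 2.36 in Lin-, fell in the order of Runx1 and was nearly all Itga2b. The plasmacytoid dendritic cell list of 5 genes, mostly Irf8 and Tcf4, overlapped, with 675 to 975 in Lym and 613 to 766 in Lin-. Its lesser genes differed. Siglech was at 81.9, 54.8 and 0.0 normalized counts in Lym and 0.0 in Lin-. Ccr9 was at 26.9, 3.36 and 2.86 against at most 0.88, and Bst2 overlapped (158 to 331 against 215 to 300). The B cell list of 7 genes, mostly Cd79b, overlapped as well, with 1.83 to 13.5 and 2.34 to 21.0. The remaining 5 lists were low in all libraries. T cell genes summed to 6.62, 1.02 and 0.422 in Lym and to 0.177 to 0.446 in Lin-. NK cell genes summed to 10.7, 3.51 and 0.844 in Lym and to 0.0 to 0.937 in Lin-. Both sums thus also fell in the order of Runx1. Lck was at 97.6, 19.0 and 1.91 normalized counts in Lym and 0.88 to 8.82 in Lin-. Nkg7 was at 225, 45.9 and 11.4 in Lym and 0.0 to 18.5 in Lin-, and the other genes of both lists had at most 35.9. Neutrophil genes came to 0.0 to 0.755 in Lym and 0.15 to 3.75 in Lin-, erythroid genes to at most 0.839, with the 4 globin genes at 0, and stroma and bone genes to at most 1.29.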

How the data were processed

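RNA was sequenced from 6 mice, 3 Lym and 3 Lin-, grouped by the labels. Per the labels' protocols, stranded total RNA libraries took 12 PCR cycles, starting from 1 ng of RNA in Lym mouse 62 and from 2 ng in the others, and reads were 38 bases long. Per the submitters' processing notes, reads were trimmed with Trim Galore 0.6.4 and the tools also include featureCounts 1.6.4, the aligner STAR 2.6.1d and, for the comparison, DESeq2, with the build GRCm38.p6. Whether counting used the strand is not given in the sources used here.

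Each library's deposited values are a signal, namely counts that the authors scaled by size factors. All values up to 10000 were whole multiples of a library's step (tolerance 0.01), so whole reads were recovered. Per the file headers the deposited table also gives exon lengths, p-values (raw and adjusted), and a log2 fold change with a Wald score and an error. Positive values there mean more in Lin-, so the sign was turned here.

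Differences were fitted with limma 3.58.1 (R 4.3.3, trend option) on log2(normalized count + 2) over 14273 genes, with Benjamini-Hochberg adjustment over all of them. edgeR 4.0.16 with TMM, DESeq2 1.42.0 and limma-voom ran on recovered reads. The fit was also run on simulated counts with set fold changes. No simulated library stood apart, so that run does not bear on the part of mouse 87. Other settings were 2 scalings, 2 filters, pseudocounts of 0.5 and 16, library weights and leaving out each mouse. Leaving out mice in edgeR and DESeq2 was chosen after seeing the data. The genes and lists were chosen with earlier results of these data known. Besides the members, the rule for naming took up to 3 members of each list with groups apart and an unadjusted p under 0.05, by size of change, its most abundant member, and the 3 genes most like each member. Genes named in list counts or as markers fall outside it. Tables and figures came from pandas 2.3.3 and matplotlib 3.10.9 under Python 3.11.15. Floors cover counting error only, while SDs and SEs also hold the differences between mice. Some marker genes are not reported here. The mice are separate animals, but no source gives their donors.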

Additional observations from a re-analysis of the deposited data

How the results depend on the processing

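The number of genes past the threshold was 0 in limma, and 226 with DESeq2, 660 with library weights, 5 with no filter on low values and 1 with a pseudocount of 16. Leaving out 1 mouse gave 0 to 1348 in limma (1 without Lin- mouse 91), 0 to 1286 in edgeR and 53 to 2074 in DESeq2 (65, 105 and 54 without Lym mouse 62 and Lin- mice 57 and 91), the highest each time without Lym mouse 87. Runx1, Runx2 and Cbfa2t3 passed with DESeq2 (0.97, 0.933 and 0.903) and with library weights (1.022, 0.966 and 0.95), and did not pass on all 6 libraries under the other settings run. With 1 mouse left out, log2 differences in limma, edgeR and DESeq2 were 0.678 to 1.192, 0.717 to 1.197 and 0.709 to 1.204 for Runx1, 0.696 to 1.147, 0.736 to 1.146 and 0.728 to 1.153 for Runx2, 0.298 to 0.436, 0.302 to 0.432 and 0.295 to 0.439 for Runx3, and 0.675 to 1.084, 0.698 to 1.086 and 0.69 to 1.093 for Cbfa2t3. For Cbfa2t2 they were 0.174 to 0.293 over the 3 tools. Cbfb ran from -0.063 to 0.196, -0.069 to 0.201 and -0.076 to 0.211, and turned without Lym mouse 62 and without Lin- mouse 57 (limma -0.005, edgeR -0.025, DESeq2 -0.001). Among the genes most like Cbfb, the limma range was -0.101 to 0.167 for Gid4, -0.107 to 0.192 for Gmcl1 and -0.077 to 0.177 for Rps28. The summed Runx level, 0.71 as a log2 ratio of means, was 0.67 as CPM, 0.77 by longest transcripts and 0.54 to 0.88 with 1 mouse left out. The cause of these differences between settings was not tested. No paired analysis was possible because the labels give no number shared between the groups.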

Other observations

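Runx2os1, annotated opposite Runx2, shares 519 bases of exon with it, 5.87% of its exon length, and was at 48.2, 40.3 and 23.8 normalized counts in Lym against 22.1, 29.9 and 19.6 in Lin-. Gm10612 shares 295 bases with Cbfa2t3 (3.52%) and was at 12.4 to 23.5 in Lym and 8.8 to 20.6 in Lin-. Gm26626 shares 106 bases with Runx1 (0.881%) and was at 2.24 to 11.4 and 0.0 to 8.25. If counting ignored the strand, reads of such pairs cannot be told apart. Supt3, a subunit gene of transcription coactivator complexes whose span runs into that of Runx2 without shared exon bases, was at 536, 421 and 413 in Lym and 382, 421 and 388 in Lin-. Runx2os2 was at 6.71 to 25.8 in Lym and 7.22 to 25.5 in Lin-, and Runx2os3 had no read. The ribosomal RNA copy n-R5s27 inside Runx2 was at 44.9 in Lym mouse 62 and at 1.03 to 1.91 in the other 5 libraries. The pseudogene Cbfa2t2-ps1 on chromosome 5 was at 30.3 to 44.8 in Lym and 13.4 to 37.1 in Lin-, and reads it may share with Cbfa2t2 are uncertain. Gm16225, beside Runx3, had at most 1.03 in any library.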
